A study of Homo sapiens with 32 samples.

Results

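The EGF receptor family and its ligands were followed in Caco-2 cells, a colon adenocarcinoma line used as a stand-in for intestinal epithelium. The group held 10 genes of the 30677 with at least 1 count in the table: the ligands HBEGF, AREG, EREG, TGFA and BTC, the receptors EGFR, ERBB2 and ERBB3, the receptor inhibitor ERRFI1 and the sheddase ADAM17. They were chosen by name, with the levels of HBEGF in HoxBan and 2D cultures in view, so differences between HoxBan and 2D are described here without a test. Of the 10 genes, 8 passed the filter on low counts, and TGFA and BTC did not.

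RNA was sequenced from wild-type cells (WT), control cells that carry an inducible Cas9 with an empty vector (e.v.), and Caco-2-HIF1A-null cells that carry the Cas9 with a guide against HIF1A (cl.21). Each line was grown in 2D dishes, in HoxBan monoculture and in HoxBan coculture (labelled co-culture) with the gut bacterium Faecalibacterium prausnitzii, with 3 libraries per group and 4 for WT in 2D. In the HoxBan tube, cells on a coverslip in medium face an anaerobic agar that holds the bacteria, or none in monoculture, while oxygen enters from above. Single WT libraries came from monoculture with YCFAinul or YCFAmuc medium and from coculture with stool on each of these media. The HIF1A-null line was grown from 1 clone, and effects of the edit and of the choice of that clone cannot be told apart. It shares the Cas9 with the e.v. cells but not with WT. Nothing in the labels or methods says that replicates came from separate cultures, so p-values measure the spread between these libraries, which may be technical.

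EGF-family ligands are made as membrane-bound precursors and are released by metalloproteases, of which ADAM17 is the best known. The released ligands bind EGFR, which pairs with itself or with ERBB2 or ERBB3 and signals through RAS and ERK as well as through PI3K, and in the intestinal epithelium this signalling is known for its part in proliferation, restitution and repair. HBEGF, AREG and EREG are themselves known targets of growth factor and stress signalling, and ERRFI1 (MIG6) is induced by receptor activity and binds the receptor kinase to inhibit it.

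The libraries held 4144373 to 6686797 counts, and values below are CPM, counts scaled per 1e6 of the TMM-adjusted library size. QuantSeq libraries read the 3′ ends of transcripts, so CPM was not divided by gene length. HIF1A had 84.9 to 90.3 CPM in HIF1A-null cells in 2D, 147 to 180 CPM in e.v. cells and 129 to 167 CPM in WT cells, while in HoxBan coculture the ranges were 137 to 210, 242 to 309 and 160 to 206 CPM. These reads come from the end of the transcript, distant from the guide, and do not check the edit itself. AK3 had 0 or 1 count in all 9 libraries of HIF1A-null cells and 83 to 319 counts in the other 23. It was picked after its values were seen, and it sets only the HIF1A-null libraries apart. The labels of e.v. against WT cells and of the cultures were not checked by it. The epithelial markers EPCAM (1080 to 2140 CPM), KRT8, KRT18, CDH1 and VIL1 were present in all 32 libraries. LGALS4 did not exceed 1.29 CPM and was at 0 in 10 libraries, and KRT20 (0.362 to 14.5 CPM) and SI (3.54 to 21.6 CPM) were also low. Of the goblet, Paneth and endocrine markers, TFF3 (7.46 to 39.8 CPM) and SPINK4 (0.152 to 2.66 CPM) had counts in all 32 libraries. MUC2, CHGA and DEFA5 were at 0 in 27, 28 and 31. Of the markers of other cell types, PTPRC was at 0 in 28 libraries and KDR in all 32, while CSF1R (0.181 to 4.05 CPM), PECAM1 (1.88 to 6.19 CPM), COL1A1 (12.2 to 51.0 CPM) and PDGFRB (3.22 to 10.4 CPM) had counts in all 32. In the replicated groups the summed level was 0.799 to 6.19 CPM over 6 immune genes, 1.88 to 6.19 CPM over 4 endothelial genes and 19.3 to 58.0 CPM over 6 fibroblast genes, and their part in the results was not tested. Mitochondrial genes took 4.49% to 17.1% of the counts in 2D and 6.36% to 23.6% in the replicated HoxBan groups, and the highest share in each group was 14.1% to 23.6%.

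EREG and AREG lie on the plus strand of chromosome 4 of GRCh38 in the GENCODE release 29 annotation, at 74365143 to 74388751 and 74445134 to 74455009, with 56.4 kb between them. BTC lies 289.7 kb beyond AREG on the minus strand, at 74744759 to 74794686. HBEGF lies on the minus strand of chromosome 5 at 140332843 to 140346631, and ERRFI1 on the minus strand of chromosome 1 at 8004404 to 8026308. The 150 bases before the RefSeq start of the 4 members with higher levels in HoxBan are given. These genes were taken by that contrast, and whether they share regulation was not tested. They were read 5′ to 3′ along each gene from RefSeq on GRCh38.p14, at chr5:140346604-140346753 for HBEGF (minus strand), chr4:74444986-74445135 for AREG (plus), chr4:74364995-74365144 for EREG (plus) and chr1:8026310-8026459 for ERRFI1 (minus). Capitals mark the motifs found.
HBEGF: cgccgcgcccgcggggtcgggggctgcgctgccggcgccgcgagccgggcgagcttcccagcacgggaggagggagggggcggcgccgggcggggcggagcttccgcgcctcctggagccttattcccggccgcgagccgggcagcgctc
AREG: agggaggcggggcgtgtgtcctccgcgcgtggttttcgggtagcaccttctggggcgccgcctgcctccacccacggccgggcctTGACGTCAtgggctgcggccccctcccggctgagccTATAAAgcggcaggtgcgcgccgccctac
EREG: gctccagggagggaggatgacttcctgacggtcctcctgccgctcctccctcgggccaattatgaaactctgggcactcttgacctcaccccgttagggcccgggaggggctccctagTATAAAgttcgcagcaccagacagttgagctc
ERRFI1: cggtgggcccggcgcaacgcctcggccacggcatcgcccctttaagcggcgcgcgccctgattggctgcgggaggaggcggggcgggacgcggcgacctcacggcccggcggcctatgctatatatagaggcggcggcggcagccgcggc

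In these windows, searched on both strands, AREG held the cyclic AMP response element TGACGTCA from 65 to 58 bases before the start, a motif found in 1.4% of all 35116 windows of the same length. AREG and EREG each held a TATA box, TATAAA, from 29 to 24 and from 32 to 27 bases before the start, found in 6.71% of all windows. None of the 4 windows held the AP-1 site TGANTCA (4.17% of all windows), the hypoxia response core ACGTG (12.6%), the ETS site CCGGAAG (6.85%) or a CArG box (0.77%). The matches in the 4 windows did not overlap each other. Only the forms given were searched, so variants were not marked or counted. Among these are gcgtg, a variant of the hypoxia response core, in the window of AREG and tatatata in that of ERRFI1. Among the other members the window of EGFR held the AP-1 site and a TATA box, that of ADAM17 the hypoxia response core and the ETS site, and that of ERBB2 the ETS site. The table held 9 of the 10 members, without ERBB3.

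HBEGF encodes heparin-binding EGF-like growth factor, a ligand of EGFR and ERBB4 that is bound to heparan sulfate and released by shedding. HBEGF in 2D was at 13.2, 12.9, 8.84 and 12.7 CPM in the WT libraries, 12.3, 9.85 and 13.2 CPM in the e.v. libraries and 7.46, 9.65 and 14.3 CPM in the HIF1A-null libraries. HBEGF in HoxBan monoculture was at 51.8, 92.3 and 108 CPM in the WT libraries, 92.5, 152 and 190 CPM in the e.v. libraries and 115, 109 and 110 CPM in the HIF1A-null libraries. HBEGF in coculture was at 118, 119 and 88.7 CPM in the WT libraries, 162, 151 and 164 CPM in the e.v. libraries and 95.3, 118 and 101 CPM in the HIF1A-null libraries. All 18 HoxBan libraries lay above all 10 of the 2D libraries, and the lowest HoxBan value, a WT monoculture library, was well above the highest 2D value.

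The mean HBEGF level was 7.04 times as high in monoculture as in 2D in WT cells, 12.3 times in e.v. cells and 10.7 times in HIF1A-null cells. On the log2 scale these differences were 2.79 (SE 0.24), 3.60 (SE 0.27) and 3.41 (SE 0.27). In coculture the ratios to 2D were 9.10, 13.5 and 10.0 in the same order. Ordered by mean, the 3 groups in 2D came lowest at 10.5 CPM ± 3.50 (SD, n = 3) for HIF1A-null cells, 11.8 ± 1.73 (n = 3) for e.v. cells and 11.9 ± 2.06 (n = 4) for WT cells, and these did not differ beyond their spread. They were followed by WT monoculture (83.9 ± 28.8), HIF1A-null coculture (105 ± 11.8), WT coculture (108 ± 17.1), HIF1A-null monoculture (112 ± 3.39), e.v. monoculture (145 ± 49.4) and e.v. coculture (159 ± 6.70, each n = 3). Neighbours in this order had overlapping libraries, except WT in 2D and WT in monoculture, which stood apart. Without the library of highest mitochondrial share in each group, the log2 differences of monoculture from 2D were 2.59, 3.27 and 3.23 in WT, e.v. and HIF1A-null cells. With that share as a covariate they were 2.79, 3.60 and 3.41.

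AREG encodes amphiregulin, an EGFR ligand of lower affinity, and was the most abundant member. AREG in 2D was at 487, 394, 291 and 356 CPM in the WT libraries, 562, 723 and 522 CPM in the e.v. libraries and 621, 560 and 556 CPM in the HIF1A-null libraries. AREG in monoculture was at 912, 926 and 1315 CPM in the WT libraries, 1400, 1605 and 1275 CPM in the e.v. libraries and 1274, 1274 and 1281 CPM in the HIF1A-null libraries. AREG in coculture was at 995, 1176 and 932 CPM in the WT libraries, 1430, 1713 and 1640 CPM in the e.v. libraries and 1268, 1336 and 1488 CPM in the HIF1A-null libraries. Every HoxBan library lay above every 2D library, and the WT mean was the lowest of each culture. Monoculture was 2.75 times 2D in WT cells, 2.37 times in e.v. cells and 2.21 times in HIF1A-null cells.

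EREG encodes epiregulin, which binds EGFR and ERBB4. EREG in 2D was at 116, 128, 65.0 and 116 CPM in the WT libraries, 206, 223 and 175 CPM in the e.v. libraries and 165, 150 and 157 CPM in the HIF1A-null libraries. EREG in monoculture was at 225, 341 and 430 CPM in the WT libraries, 480, 657 and 532 CPM in the e.v. libraries and 453, 454 and 389 CPM in the HIF1A-null libraries. EREG in coculture was at 266, 325 and 352 CPM in the WT libraries, 627, 584 and 613 CPM in the e.v. libraries and 423, 461 and 359 CPM in the HIF1A-null libraries. The lowest HoxBan library (225 CPM) stood just above the highest 2D library (223 CPM) when lines were mixed, while within each line the gap was wider. The ratios of monoculture to 2D were 3.13 in WT cells, 2.77 in e.v. cells and 2.74 in HIF1A-null cells.

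**Figure D1:**
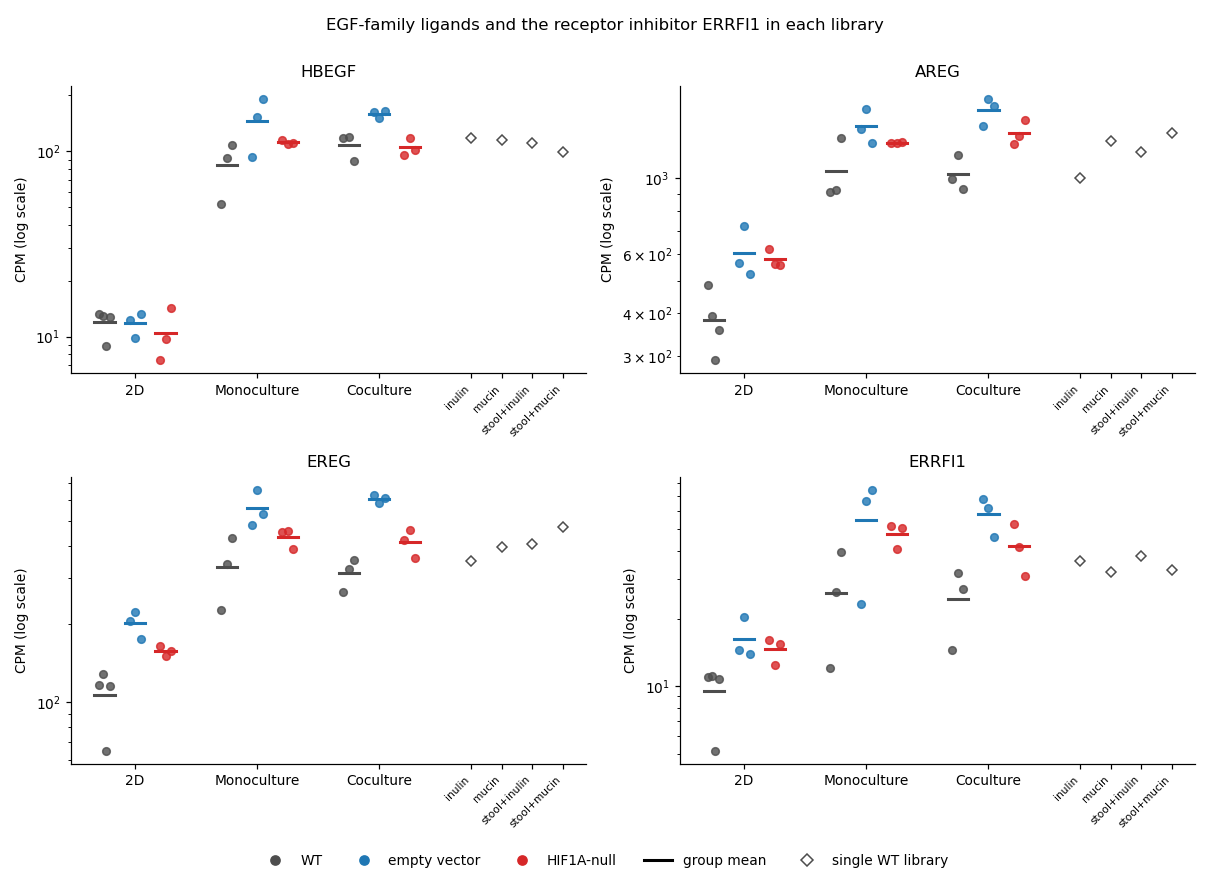
CPM on a log axis of HBEGF, AREG, EREG and ERRFI1 in each library, by culture and line, with bars at group means and open diamonds for the single WT libraries. HBEGF stands at 7.46 to 14.3 CPM in 2D and 51.8 to 190 CPM in monoculture, and the e.v. libraries have the highest means of AREG, EREG and ERRFI1 in each culture.

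TGFA, transforming growth factor alpha, and BTC, betacellulin, were close to absent. TGFA did not exceed 0.938 CPM in any of the 28 libraries of the replicated groups and was at 0 in 5 of the 10 libraries in 2D. BTC did not exceed 0.690 CPM and was at 0 in 6 of these 10. At this depth no difference in either gene was detectable. The ligands and receptor of the family that were not among the members, EGF, EPGN, NRG1, NRG2, NRG3, NRG4 and ERBB4, held 0 to 31 counts each over the 28 libraries, and 0 of these 7 genes passed the filter.

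EGFR, the receptor of these ligands, did not follow them. EGFR in 2D was at 43.5, 37.6, 53.8 and 29.2 CPM in the WT libraries, 27.2, 41.7 and 36.6 CPM in the e.v. libraries and 35.5, 28.4 and 17.7 CPM in the HIF1A-null libraries. EGFR in monoculture was at 45.1, 58.4 and 32.8 CPM in the WT libraries, 24.8, 26.6 and 28.5 CPM in the e.v. libraries and 31.5, 25.9 and 25.5 CPM in the HIF1A-null libraries. EGFR in coculture was at 32.3, 32.7 and 57.9 CPM in the WT libraries, 29.7, 25.2 and 22.8 CPM in the e.v. libraries and 30.4, 18.8 and 30.6 CPM in the HIF1A-null libraries. HoxBan and 2D libraries overlapped in all 3 lines, and the log2 differences of monoculture from 2D were 0.13 (SE 0.25), -0.42 (SE 0.27) and 0.03 (SE 0.27) in WT, e.v. and HIF1A-null cells. EGFR-AS1 lies within EGFR on the opposite strand, with 7.61 to 16.4 CPM in 2D and 2.37 to 8.11 CPM in coculture, and because no source used here gives the strand setting of the counting, reads of the pair may be shared.

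ERBB2, the receptor with no known ligand of its own, was lower in HoxBan. ERBB2 in 2D was at 56.5, 43.3, 57.8 and 52.8 CPM in the WT libraries, 59.1, 47.9 and 68.1 CPM in the e.v. libraries and 50.9, 60.2 and 49.6 CPM in the HIF1A-null libraries. ERBB2 in monoculture was at 22.7, 38.4 and 25.3 CPM in the WT libraries, 25.0, 27.6 and 27.8 CPM in the e.v. libraries and 28.1, 14.8 and 29.4 CPM in the HIF1A-null libraries. ERBB2 in coculture was at 18.0, 28.7 and 41.0 CPM in the WT libraries, 30.8, 20.4 and 14.4 CPM in the e.v. libraries and 31.7, 21.7 and 35.1 CPM in the HIF1A-null libraries. All 18 HoxBan libraries lay below all 10 of the 2D libraries. The ratio of monoculture to 2D was 0.547 in WT cells, 0.459 in e.v. cells and 0.450 in HIF1A-null cells. MIEN1 and PGAP3 overlap ERBB2 on the opposite strand, and as with EGFR their reads may be shared. MIEN1 was at 14.4 to 24.3 CPM in 2D, 23.6 to 35.9 CPM in monoculture and 17.8 to 39.4 CPM in coculture, and PGAP3 did not exceed 8.01 CPM.

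ERBB3, a receptor with little kinase activity that signals as a partner of ERBB2, was also lower in HoxBan by its means. ERBB3 in 2D was at 184, 135, 196 and 117 CPM in the WT libraries, 146, 122 and 172 CPM in the e.v. libraries and 136, 147 and 102 CPM in the HIF1A-null libraries. ERBB3 in monoculture was at 63.4, 148 and 60.5 CPM in the WT libraries, 60.0, 59.5 and 54.5 CPM in the e.v. libraries and 60.3, 32.9 and 61.5 CPM in the HIF1A-null libraries. ERBB3 in coculture was at 53.3, 69.7 and 141 CPM in the WT libraries, 65.8, 58.8 and 42.1 CPM in the e.v. libraries and 71.9, 34.3 and 64.4 CPM in the HIF1A-null libraries. In e.v. and HIF1A-null cells the cultures did not overlap, while in WT cells replicate 19 of monoculture and replicate 28 of coculture lay within the 2D range. Those libraries had the highest mitochondrial shares of their groups, at 15.5% and 20.4%. Without the former, the log2 difference of WT monoculture from 2D went from -0.82 (SE 0.32) to -1.37, and without the latter that of coculture went from -0.86 (SE 0.32) to -1.37.

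**Figure D2:**
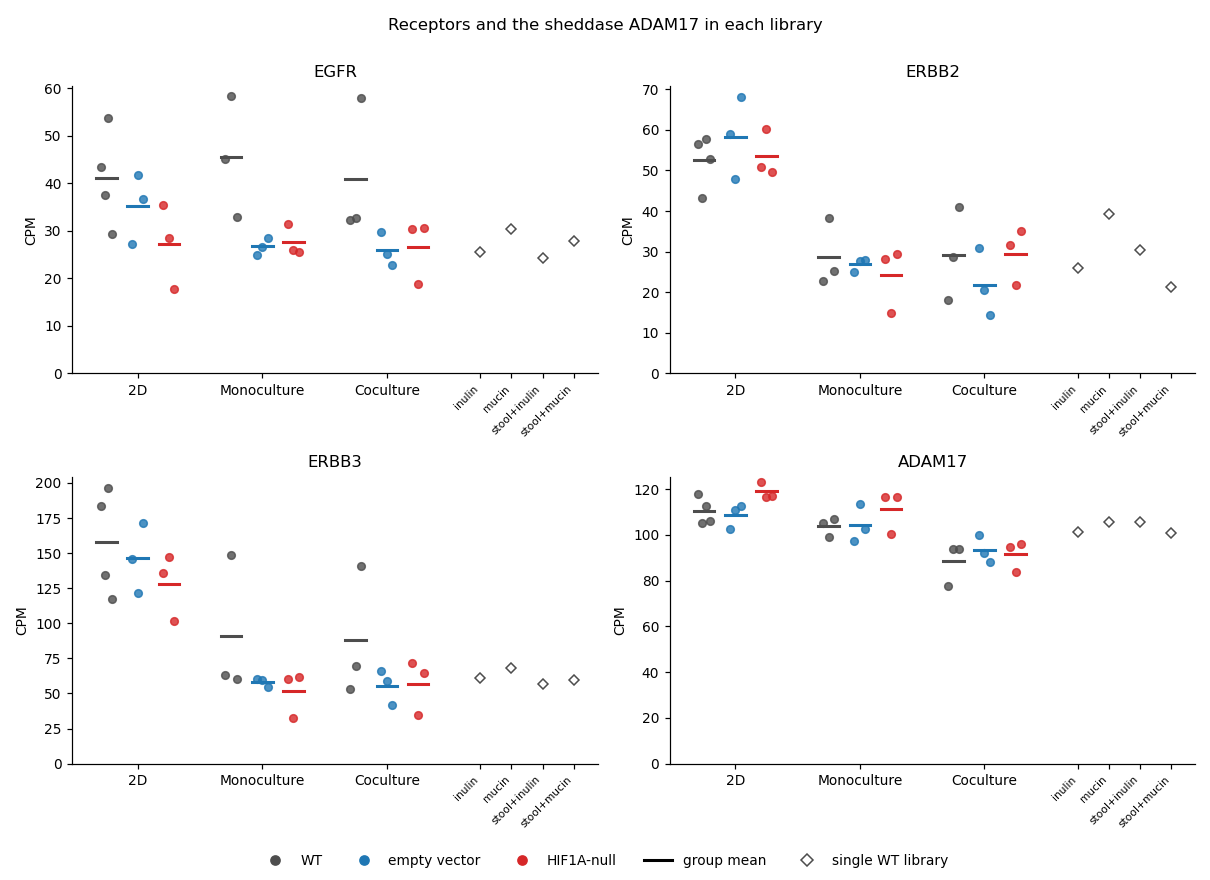
CPM of EGFR, ERBB2, ERBB3 and ADAM17 in each library on axes from 0, by culture and line, with bars at group means and open diamonds for the single WT libraries. ERBB2 lies at 43.3 to 68.1 CPM in 2D and at 14.4 to 41.0 CPM in coculture, while EGFR overlaps between cultures.

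ERRFI1, the inhibitor, was a low-level gene that was higher in HoxBan in each line. ERRFI1 in 2D was at 11.0, 11.1, 5.16 and 10.8 CPM in the WT libraries, 14.5, 20.4 and 13.9 CPM in the e.v. libraries and 16.0, 12.4 and 15.4 CPM in the HIF1A-null libraries. ERRFI1 in monoculture was at 12.0, 26.4 and 39.5 CPM in the WT libraries, 23.2, 66.5 and 75.0 CPM in the e.v. libraries and 51.4, 41.0 and 50.8 CPM in the HIF1A-null libraries. ERRFI1 in coculture was at 14.5, 32.0 and 27.1 CPM in the WT libraries, 67.9, 61.9 and 46.3 CPM in the e.v. libraries and 53.0, 41.8 and 31.1 CPM in the HIF1A-null libraries. Within each line HoxBan and 2D did not overlap, but the lowest WT HoxBan library was only slightly above the highest WT library in 2D. The ratios of monoculture to 2D were 2.74, 3.38 and 3.27 in WT, e.v. and HIF1A-null cells.

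ADAM17, the protease that releases HBEGF, AREG and EREG, varied little. ADAM17 in 2D was at 118, 105, 113 and 106 CPM in the WT libraries, 103, 111 and 113 CPM in the e.v. libraries and 123, 117 and 117 CPM in the HIF1A-null libraries. ADAM17 in monoculture was at 105, 99.1 and 107 CPM in the WT libraries, 97.5, 113 and 102 CPM in the e.v. libraries and 117, 100.4 and 117 CPM in the HIF1A-null libraries. ADAM17 in coculture was at 77.9, 93.7 and 94.0 CPM in the WT libraries, 99.8, 92.0 and 88.1 CPM in the e.v. libraries and 94.8, 83.6 and 96.0 CPM in the HIF1A-null libraries. All 9 coculture libraries lay below all 10 of the 2D libraries, while monoculture and 2D overlapped. The ratio of coculture to 2D was 0.802 in WT cells, 0.858 in e.v. cells and 0.768 in HIF1A-null cells.

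Among the 8 members tested, HBEGF, AREG, EREG and ERRFI1 did not overlap and were higher in monoculture than in 2D in each of the 3 lines, as was the case for 6.36% of all genes tested, and the same 4 were higher in coculture, as were 7.92% of all genes. ERBB2 was lower without overlap in each line in monoculture (7.92% of all genes), and ERBB2 and ADAM17 in coculture (11.2%). The members were chosen on this contrast, so nothing is read from these counts.

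**Figure D3:**
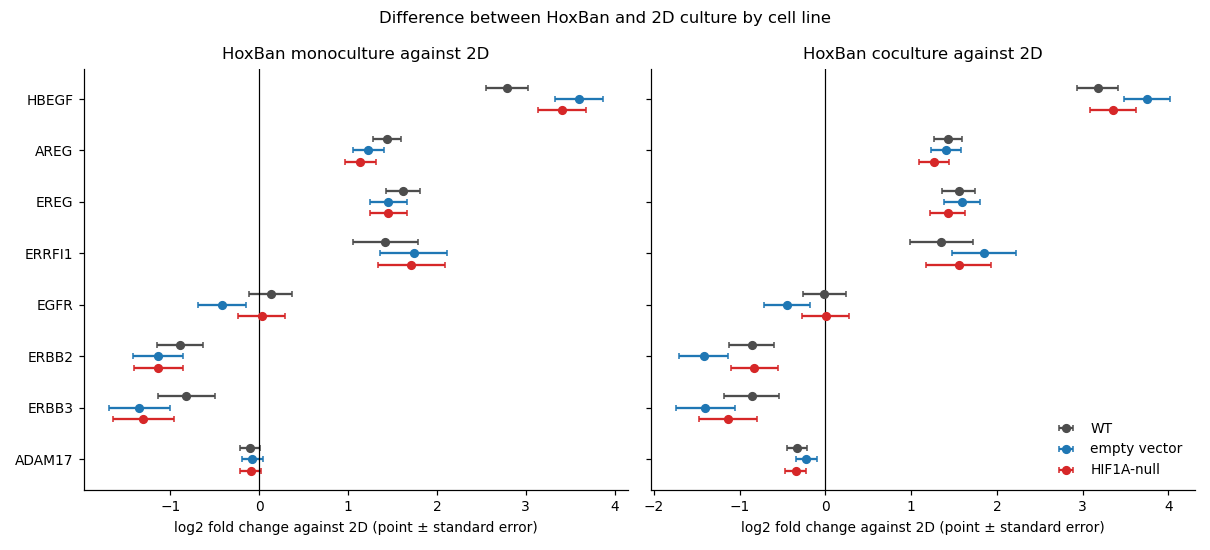
Log2 fold change of each member in HoxBan monoculture (left) and coculture (right) against 2D, by line, with bars for the standard error. HBEGF has the largest values (2.79 to 3.75), AREG, EREG and ERRFI1 stand between 1.14 and 1.85, EGFR and ADAM17 lie near 0, and ERBB2 and ERBB3 lie below 0.

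Genes known to be switched on by ERK, the kinase downstream of these receptors, were described on the same contrast. Of 16 such genes, 15 were tested, and their median log2 difference of monoculture from 2D was 0.56 in WT cells, 1.07 in e.v. cells and 1.21 in HIF1A-null cells, against 0.01, -0.01 and -0.02 over all genes. Without overlap, 3 of them were higher in WT cells, 8 in e.v. cells and 8 in HIF1A-null cells, against 12.2%, 17.8% and 18.4% of all genes. EGR1, an immediate early transcription factor, had a mean of 27.1 CPM in 2D and 134 CPM in monoculture in WT cells, 14.5 and 115 CPM in e.v. cells, and in HIF1A-null cells 12.6 and 101 CPM. DUSP6, the phosphatase that turns ERK off, went from 90.0 to 219 CPM in WT cells, from 31.2 to 116 CPM in e.v. cells and from 34.3 to 107 CPM in HIF1A-null cells. SPRY2, SPRED2 and EPHA4 had values below 0 in all 3 lines.

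A further list held 8 regulators of the receptors, not all of them inhibitors, and all were tested. In WT, e.v. and HIF1A-null cells 0, 1 and 2 of them were higher without overlap, where 12.2%, 17.8% and 18.4% of all genes were. The same regulators numbered 4, 2 and 2 among the lower genes, against 13.8%, 19.7% and 19.9% of all genes. SOCS5 and TNK2 were lower without overlap in monoculture in all 3 lines. TNK2, a kinase that takes part in EGFR turnover, had 11.2 and 4.97 CPM in WT cells in 2D and monoculture, 11.7 and 6.14 CPM in e.v. cells, and in HIF1A-null cells 13.9 and 7.54 CPM. Of 8 genes for sheddases and their partners, 5 were tested, and 0, 1 and 2 of them were higher without overlap in the same order, against 12.2%, 17.8% and 18.4% of all genes. RHBDF1, a partner that helps ADAM17 mature, went from 8.86 to 19.1 CPM in e.v. cells and from 11.2 to 21.9 CPM in HIF1A-null cells, with 11.8 and 13.8 CPM in WT cells. Of 18 genes of the core cascade, all of which were tested, 1, 1 and 4 were higher without overlap in WT, e.v. and HIF1A-null cells (12.2%, 17.8% and 18.4% of all genes) and 4, 6 and 5 were lower (13.8%, 19.7% and 19.9%).

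**Figure D4:**
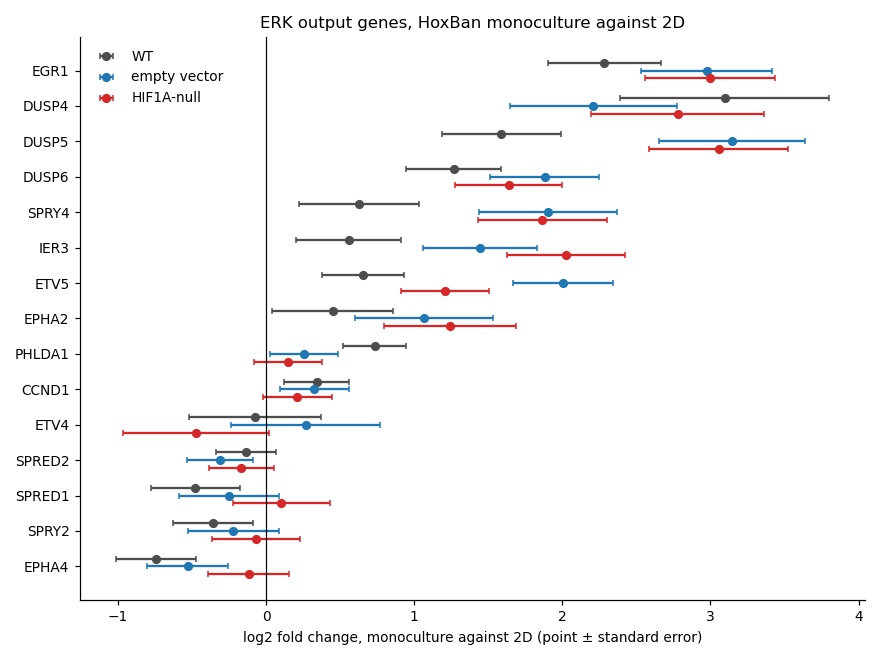
Log2 fold change of the 15 tested ERK output genes in HoxBan monoculture against 2D, by line, with bars for the standard error. EGR1, DUSP4, DUSP5 and DUSP6 lie above 1 in all 3 lines, and EPHA4 lies below 0 in all 3. DUSP4 is near the floor in 2D, with means of 0.188, 0.677 and 0.442 CPM in WT, e.v. and HIF1A-null cells.

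Whether the loss of HIF1A moved the family was asked by comparing HIF1A-null with e.v. cells within each culture. The genes were not chosen on this contrast, but the levels of HBEGF in all lines were in view when they were chosen. None of the 8 tested members passed the threshold in edgeR's quasi-likelihood test in 2D, where 1.00% of all genes did, in monoculture (0.674%) or in coculture (0.716%). At an unadjusted p under 0.05 there were 0, 1 (EREG) and 2 (HBEGF and EREG) members, where 8.73%, 7.88% and 8.66% of all genes were, and DESeq2 called 0 in each culture. In coculture HBEGF was at 105 CPM ± 11.8 (SD, n = 3) in HIF1A-null and 159 ± 6.70 (n = 3) in e.v. cells, with no overlap and a log2 difference of -0.57 (95% interval -1.02 to -0.11, edgeR adjusted p = 0.406). EREG differed by -0.52 in coculture (interval -0.88 to -0.16, edgeR adjusted p = 0.274), by -0.36 in monoculture (interval -0.72 to -0.01, edgeR adjusted p = 0.620) and by -0.36 in 2D (interval -0.78 to 0.06, edgeR adjusted p = 0.693), and HIF1A-null libraries lay below all e.v. libraries in each culture. The share of all genes without overlap between lines was not counted. Nothing is therefore read from such separations here or in the comparisons with WT cells below. The intervals of AREG were -0.42 to 0.29 in 2D, -0.50 to 0.19 in monoculture and -0.54 to 0.15 in coculture.

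EGFR differed between HIF1A-null and e.v. cells by -0.38 (interval -0.93 to 0.16) in 2D and by 0.07 (interval -0.38 to 0.53) in coculture, and ERBB2 by 0.47 (interval -0.16 to 1.10) in coculture. ADAM17 had the narrowest intervals, -0.12 to 0.37 in 2D and -0.33 to 0.33 in coculture.

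The e.v. cells differed from WT cells in ligand levels. In 2D, AREG rose by 0.65 on the log2 scale (SE 0.16, edgeR adjusted p = 0.0413) and EREG by 0.91 (SE 0.19, edgeR adjusted p = 0.0150), so 2 of the 8 members passed, where 1.28% of all genes did. In both genes the 3 e.v. libraries lay above all 4 WT libraries, and HBEGF was at -0.02 (interval -0.55 to 0.51, edgeR adjusted p = 0.985). The AREG call ended when WT replicates 8 (0.66, edgeR adjusted p = 0.0710), 12 (0.54, 0.165) or 27 (0.62, 0.122), or e.v. replicates 23 (0.69, 0.0889), 26 (0.50, 0.396) or 32 (0.74, 0.0590), were left out. The EREG call ended without WT replicate 12 (0.74, edgeR adjusted p = 0.05002) or e.v. replicates 23 (0.89, 0.0576) or 26 (0.84, 0.121). WT replicate 12 and e.v. replicate 26 held the highest mitochondrial shares of their groups, 14.1% and 17.1%, and without the library of highest share in each group AREG differed by 0.38 (edgeR adjusted p = 0.647) and EREG by 0.65 (edgeR adjusted p = 0.400).

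In coculture EREG rose by 0.95 in e.v. against WT cells (SE 0.21, edgeR adjusted p = 0.0159), with no overlap, and was the 1 member that passed, where 1.80% of all genes did. This call ended without WT replicate 3 (0.84, edgeR adjusted p = 0.0737), without e.v. replicate 14 (0.94, 0.0548) or without the library of highest mitochondrial share in each group (1.04, 0.0875). AREG differed by 0.63 (edgeR adjusted p = 0.0613) and ERRFI1 by 1.26 (edgeR adjusted p = 0.0761), with no overlap in either gene. DESeq2 called EREG, AREG (adjusted p = 0.0170) and ERRFI1 (adjusted p = 0.0359).

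In monoculture 0 of the 8 members passed between e.v. and WT cells, where 1.10% of all genes did. There were 5 members at an unadjusted p under 0.05, namely HBEGF, AREG, EREG, EGFR and ERRFI1, as were 14.0% of all genes, and DESeq2 called 1. HBEGF differed by 0.79 (interval 0.30 to 1.28, edgeR adjusted p = 0.109) and EREG by 0.74 (interval 0.32 to 1.16, edgeR adjusted p = 0.0712). Without e.v. replicate 11, HBEGF (1.03, edgeR adjusted p = 0.0146), EREG (0.84, 0.0294) and ERRFI1 (1.45, 0.0160) passed, and without WT replicate 29 EREG passed (1.00, 0.0285). EGFR had -0.77 in monoculture (interval -1.32 to -0.22, edgeR adjusted p = 0.173) and -0.66 in coculture (interval -1.22 to -0.10, edgeR adjusted p = 0.223), with all e.v. libraries below all WT libraries.

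Between HIF1A-null and WT cells none of the 8 members passed in 2D (1.46% of all genes did), in monoculture (2.28%) or in coculture (0.926%). In the 3 cultures 3, 3 and 4 members had an unadjusted p under 0.05, as did 9.63%, 16.4% and 13.0% of all genes, and DESeq2 called 1, 0 and 0. The DESeq2 call was AREG in 2D, with a log2 difference of 0.58 (interval 0.25 to 0.92, edgeR adjusted p = 0.0722), which also passed in edgeR without WT replicate 5 (0.73, adjusted p = 0.0218). EREG differed by 0.55 in 2D (interval 0.16 to 0.95, edgeR adjusted p = 0.205). EGFR differed by -0.61 in 2D, -0.71 in monoculture and -0.59 in coculture (edgeR adjusted p = 0.358, 0.168 and 0.343). Its HIF1A-null libraries lay below all WT libraries in monoculture and coculture, and overlapped them in 2D. These comparisons share libraries with those of e.v. cells, so their values are given side by side only.

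**Figure D5:**
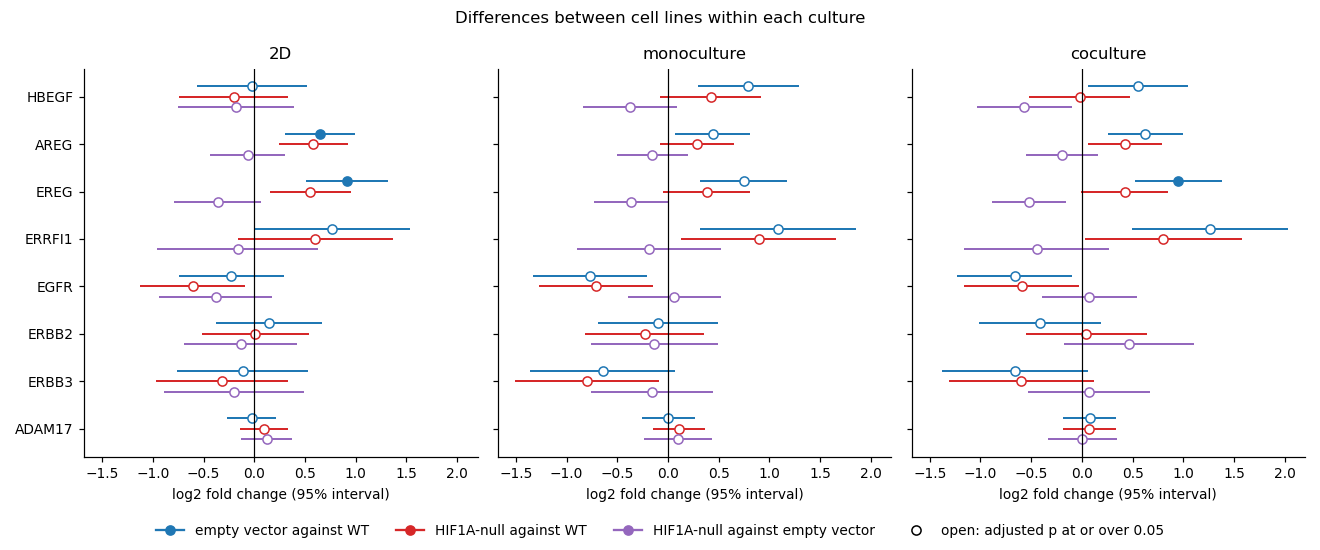
Log2 fold change with its 95% interval for each member between lines, in 2D, monoculture and coculture, with filled points for an adjusted p under 0.05. The filled points are AREG (0.65) and EREG (0.91) in 2D and EREG (0.95) in coculture, all between e.v. and WT cells.

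In the comparisons with WT cells in 2D, 2 ERK output genes were lower, DUSP6 in both other lines and ETV5 in e.v. cells only. DUSP6 in 2D was at 113, 36.8, 152 and 57.7 CPM in the WT libraries, 37.0, 24.2 and 32.6 CPM in the e.v. libraries and 42.6, 30.0 and 30.1 CPM in the HIF1A-null libraries. It fell by 1.53 on the log2 scale in e.v. against WT cells (edgeR adjusted p = 0.0243) and by 1.41 in HIF1A-null against WT cells (edgeR adjusted p = 0.0306), and WT replicate 8 overlapped both other lines. ETV5, a transcription factor induced by ERK, was at 4.80 to 11.6 CPM in WT and 1.99 to 3.84 CPM in e.v. cells, with no overlap, and fell by 1.52 (edgeR adjusted p = 0.0173). In HIF1A-null cells its mean was 7.02 CPM against 8.48 CPM in WT cells, a log2 difference of -0.29 (edgeR adjusted p = 0.902). So 2 of the 15 tested genes passed in e.v. against WT cells, where 1.28% of all genes did, and 1 in HIF1A-null against WT cells (1.46%).

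These calls depended on single libraries. DUSP6 in e.v. against WT cells did not pass without WT replicates 5 (-1.40, edgeR adjusted p = 0.0687) or 12 (-1.15, 0.116) or without any 1 of the 3 e.v. libraries (adjusted p = 0.0632 to 0.221). DUSP6 in HIF1A-null against WT cells did not pass without WT replicates 5 (-1.27, edgeR adjusted p = 0.108) or 12 (-1.03, 0.167) or without any 1 of the 3 HIF1A-null libraries (adjusted p = 0.0675 to 0.192). The ETV5 call ended without WT replicate 5 (-1.33, edgeR adjusted p = 0.0561) or e.v. replicates 23 (-1.31, 0.108) or 32 (-1.53, 0.0678). Without the library of highest mitochondrial share in each group, none of the 3 calls remained, at -1.001 (edgeR adjusted p = 0.508) and -1.22 (0.231) for DUSP6 and -1.73 (0.127) for ETV5.

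The median of the ERK output list in 2D was -0.81 for e.v. and -0.62 for HIF1A-null against WT cells, against -0.01 and 0.00 over all genes. In monoculture the medians were -0.17 and -0.27 and in coculture -0.10 and -0.16, and no gene of the list passed in either. No gene of the list passed between HIF1A-null and e.v. cells.

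Whether F. prausnitzii moved the family was asked by comparing coculture with monoculture. None of the 8 members passed in any line, and no gene of the 12849 tested passed in edgeR in any line. At an unadjusted p under 0.05 there were 555 genes in WT, 791 in e.v. and 908 in HIF1A-null cells, and DESeq2 called 0, 0 and 2. Over the 3 lines together 1.99% of all genes passed, and 0 of the 8 members, with 1 (ADAM17) at an unadjusted p under 0.05, as were 18.5% of all genes. HBEGF differed by 0.16 (95% interval -0.12 to 0.44), AREG by 0.10 (interval -0.11 to 0.30), EREG by 0.02 (interval -0.23 to 0.26), EGFR by -0.06 (interval -0.39 to 0.26) and ERBB2 by 0.02 (interval -0.32 to 0.36). ADAM17 had -0.21 (interval -0.35 to -0.06, edgeR adjusted p = 0.102; DESeq2 adjusted p = 0.0332), with 91.1 CPM in coculture and 107 CPM in monoculture.

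FRMD8, a partner of the ADAM17 complex, fell by 0.61 over the 3 lines (edgeR adjusted p = 0.0235). It was the 1 of 5 tested sheddase genes that passed, where 1.99% of all genes did. Its coculture and monoculture libraries overlapped. The FRMD8 call ended without WT coculture replicates 3 (-0.56, edgeR adjusted p = 0.0523) or 20 (-0.58, 0.0618) or without e.v. coculture replicates 18 (-0.59, 0.0706) or 22 (-0.55, 0.0646). It also ended without HIF1A-null coculture replicate 21 (-0.56, 0.0686). Without the library of highest mitochondrial share in each group FRMD8 passed, at -0.78 (edgeR adjusted p = 0.00383). In the tests of whether the coculture effect differed between lines, added after the data were seen, no gene passed in edgeR for any pair of lines. The genes with an unadjusted p under 0.05 numbered 115 (e.v. against WT), 169 (HIF1A-null against e.v.) and 88 (HIF1A-null against WT). The difference of the HBEGF effect was -0.24 between e.v. and WT cells, -0.20 between HIF1A-null and e.v. cells and -0.44 between HIF1A-null and WT cells (edgeR unadjusted p = 0.486, 0.547 and 0.202).

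Across the 28 libraries, the genes whose levels were most like HBEGF in Pearson's r of log2(CPM + 1), over 9949 genes with a mean of at least 5 CPM, were GADD45A (r = 0.980), PLK2 (0.977), H3C10 (0.977), MAP3K8 (0.976) and GADD45B (0.974). These correlations carry the difference between HoxBan and 2D and share library and depth, so they are descriptions. Of the members, AREG ranked 105 (r = 0.916), EREG 131 (0.907) and ERRFI1 370 (0.840), while ERBB3 (-0.81) and ERBB2 (-0.83) were near the other end. Taken as deviations from group means, EREG and ERRFI1 had r = 0.78, ERBB2 and ERBB3 r = 0.87, EGFR and ERBB3 r = 0.76, and AREG and EREG r = 0.60. On the same scale HBEGF had r = 0.62 with ERRFI1, 0.51 with EREG, 0.22 with AREG and -0.48 with EGFR.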

How the data were processed

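The authors deposited counts per Ensembl gene for 32 QuantSeq 3′ libraries, made on GRCh38 per the labels. The aligner, counting tool, annotation and strand setting were not stated in any source used here. The table held 60107 rows, 30677 with at least 1 count, and rows without a gene name held 0.0679% of counts. Members and gene lists were chosen with earlier results of these data known. By rule all members were named, with the 5 genes most like HBEGF and up to 4 genes of each other list that passed a test. Genes of those lists named for HoxBan against 2D, and AK3, were chosen after their values were seen.

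Counts were tested with edgeR 4.0.16 (quasi-likelihood, TMM, its default filter on low counts) in R 4.3.3, in 1 fit of 28 libraries in 9 groups (12849 genes, 19 residual degrees of freedom, coefficient of biological variation 0.201). HIF1A-null against e.v. in HoxBan used a fit of those 12 libraries (12013 genes, 8 residual degrees of freedom, coefficient 0.220). Tests were two-sided, with Benjamini-Hochberg adjustment over all genes tested and a threshold of 0.05. CPM is scaled per 1e6 TMM-adjusted counts over all 32 libraries. Without molecular identifiers, intervals from counts cover counting error only. Replicates of each group were compared by chi-square and differed beyond counting noise, at 4.04 or more per gene. Alternatives were DESeq2 1.42.0, upper-quartile factors, no filter, only the groups compared, the mitochondrial share as covariate and leaving out each library. Leaving out the library of highest mitochondrial share in each group, and the test of coculture effects between lines, were added after the data were seen. The steps were tested on simulated counts. Sequences came from RefSeq promoter windows, read with Python 3.11.15 and pandas 2.3.3, and figures were drawn with matplotlib 3.10.9.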

Additional observations from a re-analysis of the deposited data

Results flagged for a closer look

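Among the 4 WT libraries in 2D, replicate 12 stood apart from the others, low in HBEGF (8.84 CPM) and in ERRFI1 (5.16 CPM) and high in the share of counts in mitochondrial genes (14.1%). Replicate 27 stood apart in BTC at 0.192 CPM, which is 1 count. For 4 values of a continuous measure, a gap of this size arises by chance in about 1 in 20 groups. That rate does not hold for BTC, with counts of 0 or 1. Several measures were screened in this group, so the chance of some flag is higher. The part of the mitochondrial share in these levels was tested only as a covariate and by leaving libraries out.

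The single WT libraries were set beside the range of the 3 WT monoculture libraries, with 95% exact Poisson intervals that cover counting error only. HBEGF had 118 CPM (109 to 128) with YCFAinul medium, above the monoculture range of 51.8 to 108 CPM. It was also above that range at 114 CPM (105 to 125) with YCFAmuc medium and at 110 CPM (102 to 119) in the stool coculture on YCFAinul medium, with intervals that reach into the range, and within it at 99.2 CPM in the stool coculture on YCFAmuc medium. In the stool coculture on YCFAmuc medium, AREG had 1364 CPM (1329 to 1400) against a range of 912 to 1315 CPM, and EREG 472 CPM (451 to 493) against 225 to 430 CPM. TGFA had 1.08 CPM (0.397 to 2.35, 6 counts) in the stool coculture on YCFAinul medium, against 0 to 0.182 CPM. Each condition is 1 library, so no difference was tested.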

How the results depend on the processing

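No result reversed under any alternative run. Of the log2 differences of single members, HBEGF included, 729 kept their direction and, where tested, their side of the threshold, 24 passed that had not, 16 no longer passed and 6 moved beyond the replicate SD. Of those of DUSP6, ETV5 and FRMD8, 39 kept their call and 24 no longer passed, among them DUSP6 and FRMD8 with only the groups compared. For e.v. against WT in 2D, the 2 members called became 1 with upper-quartile factors, 1 with only the groups compared, 0 to 2 leaving out each library and 0 without the library of highest mitochondrial share in each group. In monoculture the 0 became 1 with DESeq2, 3 with no filter, 1 with the mitochondrial covariate and 0 to 3 leaving out each library. In coculture the 1 became 3 with DESeq2, 3 with no filter, 3 with the covariate, 0 to 1 leaving out each library and 0 without the libraries of highest share. For HIF1A-null against WT the 0 became 1 in 2D with DESeq2, no filter or the covariate and 0 to 1 leaving out each library, 2 in monoculture with no filter and 1 in coculture with no filter. For coculture against monoculture over 3 lines, the 0 became 1 with DESeq2 or the covariate. The HBEGF log2 difference of monoculture from 2D in e.v. cells was 3.27 without the libraries of highest share. The cause of these changes was not tested. HIF1A-null against e.v. stayed at 0 members under each alternative run. No paired analysis was possible because the replicate numbers in the labels are library numbers that groups do not share. Groups of 3 limit what can be seen, and TGFA and BTC were too low to compare.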

Other observations

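EGFR was below the range of the 3 WT monoculture libraries (32.8 to 58.4 CPM) in all 4 single WT libraries, at 25.5 CPM with YCFAinul, 30.4 CPM with YCFAmuc, 24.3 CPM in stool coculture on YCFAinul and 27.9 CPM in stool coculture on YCFAmuc. ERRFI1 in these libraries was within that range, from 32.4 to 37.8 CPM, and so was ADAM17, from 100.9 to 106 CPM.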
